A study of Mus musculus with 2 samples.

Results

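Nnt, Wdfy1, Ide, Gabra2 and Yipf4 are 5 of the 24130 genes listed for 2 libraries of single cells from mouse hippocampus. They were chosen from values of these libraries and from outside knowledge. Nnt, Wdfy1 and Yipf4 were picked because their UMIs (unique molecular identifiers, 1 per captured transcript) were higher in EMF_AuNPs in the cell types measured, and Nnt, Wdfy1, Ide and Gabra2 because they are known to differ between substrains of C57BL/6. The differences between the libraries given here are therefore a description of the genes and no test.

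The Control library came from the hippocampus of male C57BL/6 mice labelled 6 months old and treated with saline. The EMF_AuNPs library came from mice of the same labelled strain, sex and age, which received gold nanoparticles (AuNPs) into the hippocampus by stereotaxic injection and then 3 weeks of exposure to an electromagnetic field (EMF) between Helmholtz coils. Both titles call the brain aged. Each group had 1 library. The sources used here give neither the substrain nor the number of animals per library. The protocol names the coils for control and AuNPs groups alike, and it leaves unclear whether the mice of this Control library were exposed. With 1 library per group, treatment, animal, substrain and preparation cannot be told apart, no difference has a replicate check, and no p-value was computed. Intervals are at the 95% level and cover only the error of counting.

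The 2 libraries held 21425 and 6996 barcodes of at least 500 UMIs and 250 genes, in the order Control, EMF_AuNPs, with 50880623 and 19537022 UMIs and medians of 1910 and 2312.5 UMIs per barcode. Marker gates placed 77.3% and 73.9% of these barcodes in a cell class. Of 18 classes, 8 had at least 50 cells in each library: 3311 and 1346 astrocytes, 5989 and 1097 oligodendrocytes, 2609 and 959 endothelial cells, 2966 and 767 microglia, 275 and 121 pericytes, 184 and 110 smooth muscle cells, 458 and 155 choroid plexus cells, and 267 and 463 red blood cells. Red blood cells were gated by haemoglobin at 25% or more of their UMIs. The first 4 of these, with the most cells, are called the main classes. The libraries shared 38 barcode sequences.

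Inbred C57BL/6 mice have been bred as separate substrains for many generations, and a small number of genes now differ between them in sequence or expression. Nnt encodes the nicotinamide nucleotide transhydrogenase of the inner mitochondrial membrane, which uses the proton gradient to make NADPH for the reduction of peroxides. C57BL/6J mice carry a deletion of several Nnt exons and lack the working protein. Gabra2 encodes the alpha-2 subunit of the GABA-A receptor, the chloride channel of fast inhibition, and C57BL/6J mice carry an intronic deletion in it that lowers its expression in brain. Wdfy1 encodes a protein with WD40 repeats and a FYVE domain that binds phosphatidylinositol 3-phosphate on endosomes and takes part in signalling from Toll-like receptors. Ide encodes the insulin-degrading enzyme, a zinc protease that also cleaves amyloid beta. Yipf4 encodes a membrane protein of the YIPF family in the Golgi apparatus. It is the only one of the 5 that was not listed for a known difference between substrains.

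The genes lie on 5 chromosomes (GENCODE M21, GRCm38, the assembly also called mm10). Nnt (ENSMUSG00000025453.18) spans chr13:119335448-119408997 on the minus strand, Wdfy1 (ENSMUSG00000073643.11) chr1:79702262-79776143 on the minus strand, Ide (ENSMUSG00000056999.15) chr19:37268743-37337852 on the minus strand, Gabra2 (ENSMUSG00000000560.9) chr5:70957597-71095849 on the minus strand, and Yipf4 (ENSMUSG00000024072.9) chr17:74489493-74500277 on the plus strand. All are protein-coding genes and the counts are per gene, so they do not show which exons were present. The annotation has a second Nnt gene model at nearly the same place (chr13:119335528-119408952), and reads that fit both could be lost by a counter. Mrpl44 overlaps Wdfy1 on the opposite strand, and its log2 ratio of EMF_AuNPs over Control was 0.45 (0.30 to 0.65).

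Promoters from RefSeq (GRCm38.p6) matched 3 of the 5 genes, Ide, Gabra2 and Yipf4. The RefSeq window of Ide (chr19:37334545-37334794, minus) lies inside the GENCODE span of the gene, so it belongs to a start within it. The 250 bases before the start of Yipf4, whose level was the most even over cell classes, and of Gabra2, whose level was high in 1 class, are shown 5′ to 3′ on the strand of the gene (chr17:74489243-74489492, plus, and chr5:71095850-71096099, minus). Capitals mark matches on either strand to the motifs described after them.
Yipf4: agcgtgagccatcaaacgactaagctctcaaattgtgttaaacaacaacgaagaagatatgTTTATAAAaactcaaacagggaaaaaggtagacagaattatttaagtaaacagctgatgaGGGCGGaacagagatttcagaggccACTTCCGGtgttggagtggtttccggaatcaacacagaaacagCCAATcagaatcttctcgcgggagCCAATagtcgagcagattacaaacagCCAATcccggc
Gabra2: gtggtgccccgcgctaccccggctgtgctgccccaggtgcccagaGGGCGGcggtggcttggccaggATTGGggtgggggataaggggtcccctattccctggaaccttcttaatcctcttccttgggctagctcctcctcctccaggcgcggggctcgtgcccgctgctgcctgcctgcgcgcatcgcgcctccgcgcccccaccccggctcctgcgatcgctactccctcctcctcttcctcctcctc

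The Yipf4 window held 3 CCAAT boxes (CCAAT, found in 33.8% of 32851 promoter windows of this length), 1 ETS motif (CCGGAAGT, 2.88%), 1 GC box (GGGCGG, 32.7%) and 2 overlapping matches to TATAAA (12.4%). The Gabra2 window held 1 CCAAT box and 1 GC box. GC content was 43.6% in Yipf4 with 10 CpG, 70% in Gabra2 with 18 CpG and 42.8% in Ide with 0 CpG, against a median of 52.4% and 6 CpG over all windows. The CRE core TGACG (17.8%), the E-box CACGTG (6.02%), the NRF1 motif (0.782%) and the antioxidant response motif TGACNNNGC (10.2%) had no match in the 3 windows. A match is a description of these letters and not a bound site.

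Over whole libraries, Nnt, Wdfy1 and Yipf4 were about 3 times as high in EMF_AuNPs, Gabra2 was higher by a smaller factor, and Ide was nearly level. Levels are CPM, UMIs of the gene per 1e6 UMIs, and log2 ratios divide EMF_AuNPs by Control after 1 CPM is added to each. The interval of a ratio is exact for the ratio with nothing added, so it is not centred on the printed value. A ratio of at least 1.5-fold is called higher or lower. Nnt had 382 UMIs in 362 Control barcodes, 7.51 CPM (6.77 to 8.30), and 536 UMIs in 453 EMF_AuNPs barcodes, 27.4 CPM (25.2 to 29.9), which is a log2 ratio of 1.74 (1.68 to 2.06). Wdfy1 was 18.3 CPM (17.1 to 19.5) and 53.9 CPM (50.7 to 57.3), which is a log2 ratio of 1.51 (1.43 to 1.69). Yipf4 was 30.9 CPM (29.4 to 32.4) and 92.4 CPM (88.2 to 96.8), which is a log2 ratio of 1.55 (1.48 to 1.68). The counting intervals of the 2 libraries did not overlap for these 3 genes, which were chosen for this difference.

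Gabra2 was 7.59 CPM (6.85 to 8.38) in the Control library and 15.8 CPM (14.1 to 17.7) in EMF_AuNPs, which is a log2 ratio of 0.97 (0.84 to 1.28). Ide was 32.7 CPM (31.1 to 34.3) and 35.7 CPM (33.1 to 38.5), which is a log2 ratio of 0.13 with an interval from -0.00032 to 0.26 that held 0. So 4 of the 5 genes passed 1.5-fold upwards and 0 passed it downwards. Of the 15402 genes with at least 20 UMIs, 9.69% were higher and 7.02% lower. Among 13448 genes with at least 100 UMIs, Nnt had the 16th highest ratio, Yipf4 the 24th, Wdfy1 the 26th, Gabra2 the 266th and Ide the 6003rd. These places follow from how the genes were chosen. The UMIs were spread over many barcodes, with at most 3 Nnt UMIs in a Control barcode and 6 in an EMF_AuNPs barcode.

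Among all genes with at least 20 UMIs in a class, the share at least 1.5-fold higher in EMF_AuNPs was 18.7% in astrocytes, 9.06% in oligodendrocytes, 12.5% in endothelial cells, 11.1% in microglia, 17.4% in pericytes, 19.7% in smooth muscle cells, 29.3% in choroid plexus cells and 7.99% in red blood cells. The shares at least 1.5-fold lower were, in the same order, 9.7%, 9.46%, 8.97%, 14.4%, 16.2%, 13.7%, 5.94% and 32.4%. The differences between libraries chose the genes, so nothing is read from their counts against these shares.

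By cell class, Nnt was higher in EMF_AuNPs in all 7 classes in which a ratio could be given. In choroid plexus cells, the epithelium that makes cerebrospinal fluid, it was 16.7 CPM (13.4 to 20.6) in the Control and 63.0 CPM (51.8 to 75.7) in the EMF_AuNPs library, which is a log2 ratio of 1.85 (1.5 to 2.33). In astrocytes it was 11.2 CPM (8.60 to 14.4) and 37.4 CPM (31.1 to 44.5), which is a log2 ratio of 1.65 (1.28 to 2.20). In oligodendrocytes, which make myelin, it was 2.81 CPM (2.02 to 3.81) and 14.1 CPM (10.6 to 18.5), which is a log2 ratio of 1.99 (1.72 to 2.96). The counting intervals of the libraries were apart in these 3 classes and in endothelial cells and microglia.

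In endothelial cells Nnt was 7.0 CPM (4.93 to 9.64) and 17.5 CPM (12.9 to 23.3), which is a log2 ratio of 1.21 (0.67 to 1.99). In microglia, the resident macrophages of the brain, it was 9.24 CPM (6.72 to 12.4) from 44 UMIs and 20.3 CPM (13.9 to 28.6) from 32 UMIs, which is a log2 ratio of 1.05 (0.43 to 1.82). With barcodes left out in which any other class had 2 or more counted markers, which kept 1063 and 281 microglia, the microglial ratio was 0.44 and no longer past 1.5-fold. In smooth muscle cells Nnt had 2 and 6 UMIs and a log2 ratio of 1.54 (-0.78 to 5.04), and in red blood cells 1 and 7 UMIs and 1.67 (-0.66 to 7.79). Both of these intervals held 0. Pericytes held 3 and 2 Nnt UMIs, too few for a ratio.

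Wdfy1 was higher in EMF_AuNPs in all 8 classes. In oligodendrocytes it was 16.9 CPM (14.9 to 19.2) and 71.2 CPM (62.9 to 80.3), which is a log2 ratio of 2.01 (1.82 to 2.33). In endothelial cells it was 14.7 CPM (11.7 to 18.4) and 60.0 CPM (51.1 to 70.02), which is a log2 ratio of 1.95 (1.63 to 2.43), and in choroid plexus cells 7.68 CPM (5.49 to 10.5) and 37.7 CPM (29.2 to 47.8), which is a log2 ratio of 2.15 (1.71 to 2.90). Its smallest ratio was in microglia, the class with its highest Control level, where it was 36.6 CPM (31.3 to 42.4) and 71.5 CPM (59.0 to 86.0), which is a log2 ratio of 0.95 (0.61 to 1.32).

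The microglial Wdfy1 ratio lay below those of oligodendrocytes, endothelial cells and choroid plexus cells by more than counting error, since its interval did not overlap theirs. The astrocyte ratio, 1.26 (0.90 to 1.75), also lay apart from that of oligodendrocytes, so 4 of 28 pairs of classes had ratios with separate intervals. In smooth muscle cells Wdfy1 had 8 and 31 UMIs and a log2 ratio of 2.02 (0.92 to 3.40). In pericytes the log2 ratio was 1.20 (-0.41 to 3.01) and in red blood cells 1.33 (-0.14 to 3.53), and both intervals held 0. The stricter gate, which kept 66 and 24 choroid plexus cells, gave a Wdfy1 ratio of 1.06 there and 1.02 in microglia, so these classes no longer stood apart. It gave 1.80 in oligodendrocytes and 1.95 in endothelial cells.

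Yipf4 was higher in all 8 classes as well, with log2 ratios from 1.00 (-0.07 to 2.14) in pericytes to 2.15 (1.12 to 3.43) in smooth muscle cells and a median of 1.62. It was 26.5 CPM (22.4 to 31.3) in the Control library and 87.1 CPM (77.4 to 97.6) in EMF_AuNPs astrocytes, which is a log2 ratio of 1.68 (1.42 to 2.01). In endothelial cells it was 27.6 CPM (23.3 to 32.5) and 97.7 CPM (86.2 to 110.2), in oligodendrocytes 31.6 CPM (28.8 to 34.6) and 95.2 CPM (85.6 to 106), and in microglia 27.7 CPM (23.2 to 32.9) and 92.4 CPM (78.0 to 109). The intervals of the libraries overlapped in pericytes, where the stricter gate left 75 and 21 cells and a log2 ratio of 0.33. They were apart in the other 7 classes, a difference for which Yipf4 was chosen. No pair of classes had Yipf4 ratios with separate intervals.

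**Figure D1:**
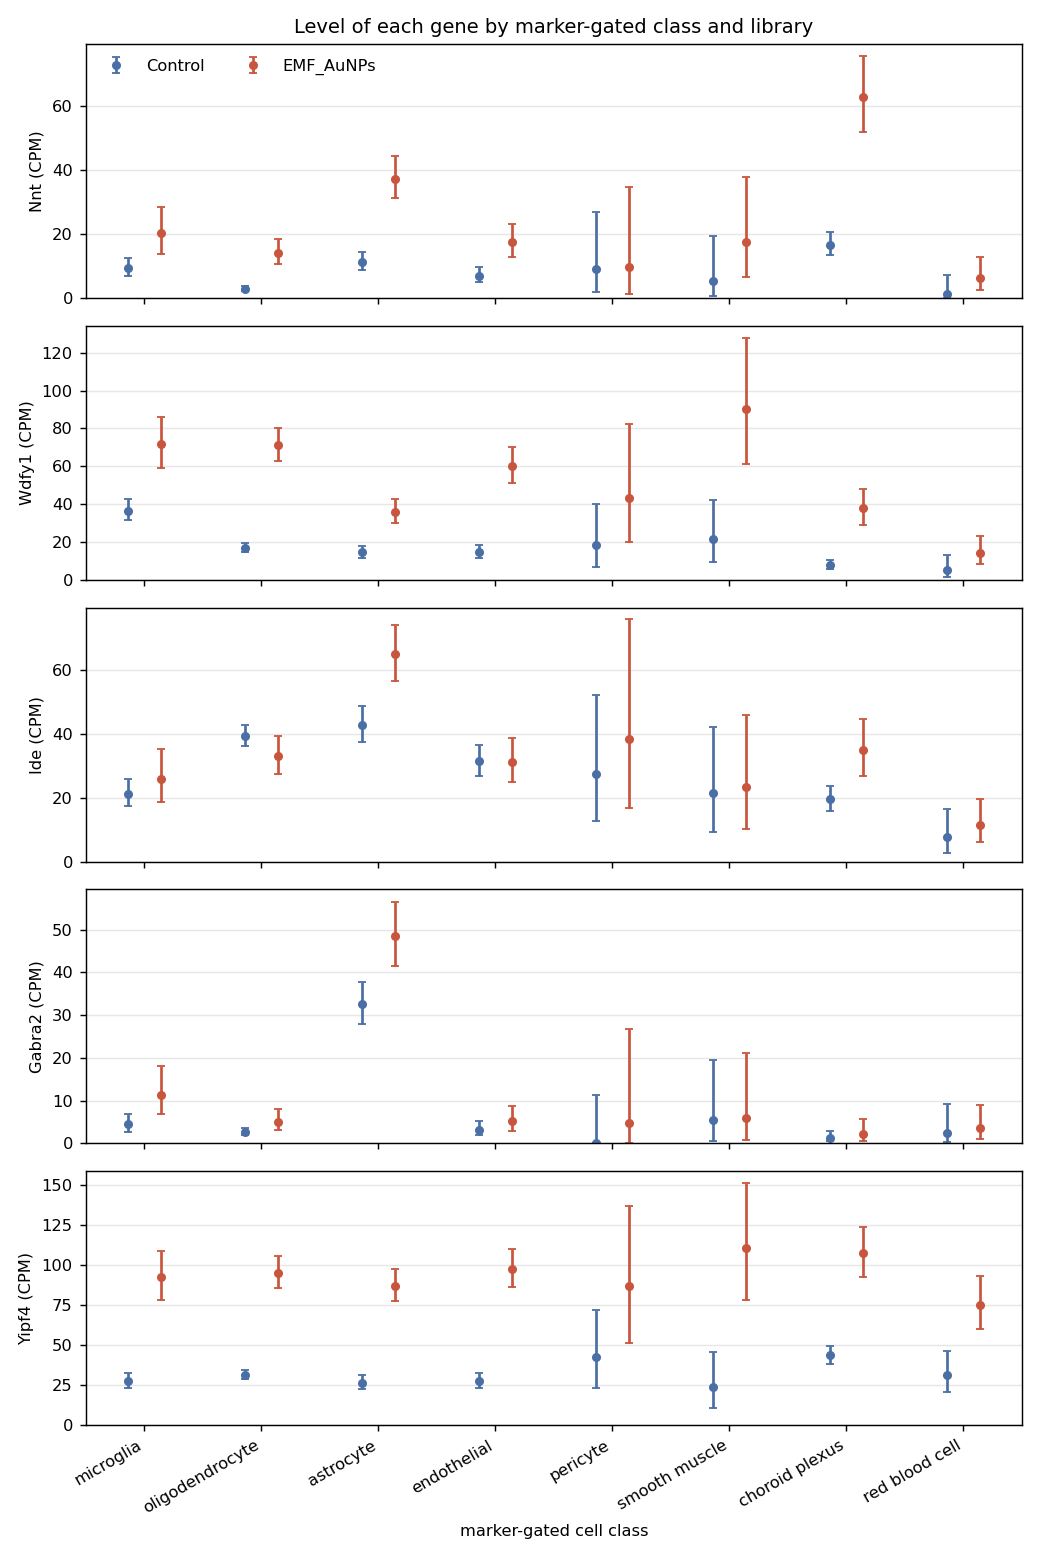
Level (CPM, vertical axes from 0) of each gene in the 8 compared marker-gated classes in the Control (blue) and EMF_AuNPs (red) library; points are the level of 1 library and bars its exact Poisson 95% interval. Yipf4 lay between 24.1 and 43.6 CPM in every Control class and between 75.3 and 110.5 CPM in every EMF_AuNPs class, while Gabra2 stood out in astrocytes of both libraries.

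Among the 8 compared classes Gabra2 was highest in astrocytes in both libraries, and this order was not used to choose it. It was 32.6 CPM (28.0 to 37.8) in the Control library and 48.5 CPM (41.4 to 56.5) in EMF_AuNPs astrocytes. These levels were 11.6-fold (8.95 to 15.2) and 8.98-fold (6.67 to 12.2) those of the other 7 compared classes together. The astrocyte log2 ratio between libraries was 0.56 (0.26 to 0.89), 1.47-fold and just under the 1.5-fold mark, and so smaller than the 1.96-fold of the whole libraries. Astrocytes held 10.7% of Control UMIs and 17.4% of EMF_AuNPs UMIs, and 45.9% and 53.4% of the Gabra2 UMIs. With the 8 classes weighted equally, the Gabra2 log2 ratio was 0.65.

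The small class of excitatory or granule neurons, with 181 and 16 cells, held 19 Gabra2 UMIs in Control, or 41.4 CPM (24.9 to 64.6), and 3 in EMF_AuNPs. In the other compared classes Gabra2 was low. Its ratio passed 1.5-fold in microglia, where it was 1.20 (0.38 to 2.35) on the log2 scale at 4.41 and 11.4 CPM, and in oligodendrocytes, where it was 0.72 (0.05 to 1.75) at 2.67 and 5.07 CPM. Both calls ended with 10 CPM added, at 0.57 and 0.25. Endothelial cells had 17 and 14 UMIs and a log2 ratio of 0.56 (-0.43 to 1.81), choroid plexus cells 7 and 4 UMIs, and red blood cells 2 and 4 UMIs. In oligodendrocytes the Gabra2 level was 8.19% of that in Control astrocytes and 10.4% of that in EMF_AuNPs astrocytes. The summed astrocyte markers there were 11.8% and 8.86% of their astrocyte level. In microglia Gabra2 was 13.5% and 23.5% of the astrocyte level, and the summed astrocyte markers 16.0% and 11.7%. The part of free or mixed astrocyte RNA in these levels was not tested.

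Ide did not pass 1.5-fold in 6 of the 8 classes. In endothelial cells it was 31.4 CPM (26.8 to 36.5) and 31.3 CPM (24.97 to 38.8), which is a log2 ratio of -0.0036 (-0.40 to 0.38), and in microglia 21.2 and 26.0 CPM, which is a log2 ratio of 0.28 (-0.27 to 0.83). In oligodendrocytes it was 39.5 CPM (36.3 to 42.8) and 33.1 CPM (27.5 to 39.4), which is a log2 ratio of -0.25 (-0.55 to 0.03). Each of these intervals held 0. Few UMIs left the other ratios wide, at 0.47 (-1.09 to 2.03) in pericytes, 0.11 (-1.49 to 1.73) in smooth muscle cells and 0.55 (-0.89 to 2.29) in red blood cells. With barcodes of at least 1000 UMIs the pericyte and red blood cell ratios were 0.82 and 0.81, past 1.5-fold, and under the stricter gate the pericyte ratio was -0.64 and the smooth muscle ratio -1.43. Ide was higher in EMF_AuNPs choroid plexus cells, 19.6 CPM (16.0 to 23.8) against 34.8 CPM (26.7 to 44.7), and in EMF_AuNPs astrocytes, 42.8 CPM (37.4 to 48.6) against 65.0 CPM (56.7 to 74.2).

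The log2 ratios of Ide in these 2 classes were 0.80 (0.35 to 1.30) and 0.59 (0.33 to 0.88), and their intervals lay apart from that of oligodendrocytes. The astrocyte value, 1.51-fold, was just over the mark and the choroid plexus value 1.74-fold. Relative to the median gene of the class, at a log2 ratio of 0.17 in astrocytes and 0.30 in choroid plexus cells, they were 0.43 and 0.50, both under the mark. The astrocyte call was lost in 5 of 6 alternatives, at 0.43 to 0.58, and the choroid plexus call also under the stricter gate, at 0.58. The median gene stood at -0.30 in red blood cells and no further than 0.1 from 0 in the remaining 5.

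Over the 40 pairs of gene and class, 37 had enough UMIs for a ratio, 27 were at least 1.5-fold higher in EMF_AuNPs and 0 were lower. Of 10412 genes with at least 20 UMIs in each of the 4 main classes, 225 (2.16%) were at least 1.5-fold higher in all 4, among them Nnt, Wdfy1 and Yipf4, and 247 (2.37%) were lower in all 4. Relative to the median gene of each class these counts were 179 and 313, and 3 of the 5 genes were among the former. Nnt, Wdfy1 and Yipf4 were chosen for being higher in the classes measured, so their presence follows from the choice.

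**Figure D2:**
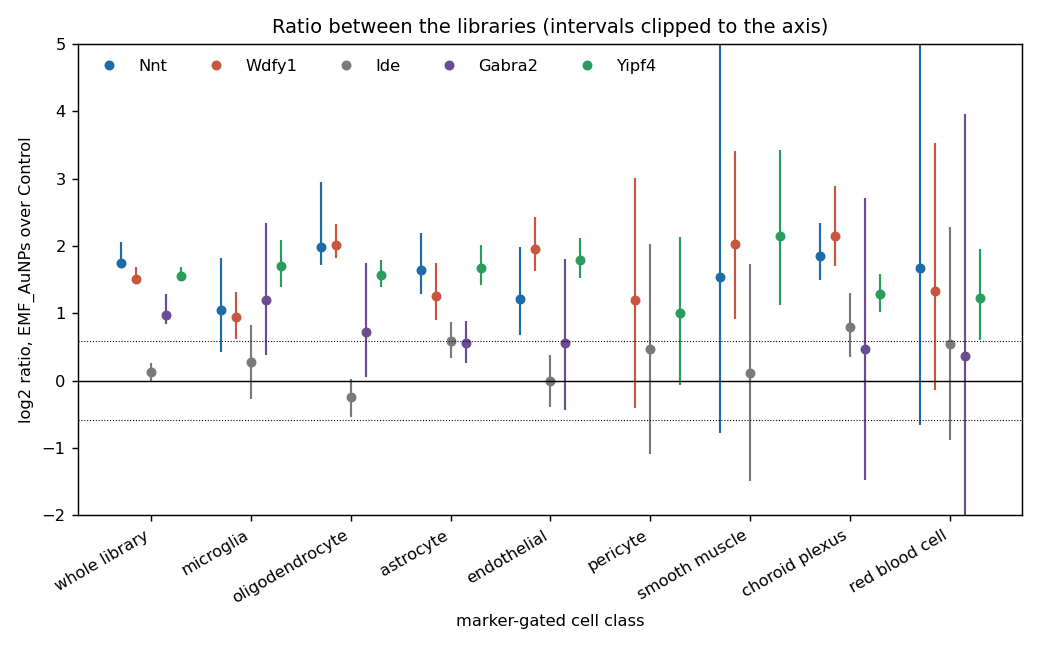
log2 ratio of EMF_AuNPs over Control (vertical axis) for each gene in the whole libraries and in the 8 compared classes; points carry 1 CPM added, lines are exact 95% counting intervals of the ratio with nothing added and are clipped at -2 and 5, dotted lines mark 1.5-fold, and 3 pairs with at most 3 UMIs in each library are left out. Nnt, Wdfy1 and Yipf4 lie above the upper dotted line wherever a ratio is drawn, and Ide lies on both sides of 0.

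Levels across classes within 1 library were not used to choose the genes. Nnt was highest in choroid plexus cells of both libraries, at 2.79-fold (2.14 to 3.62) the other compared classes together in Control and 3.01-fold (2.39 to 3.76) in EMF_AuNPs. Astrocytes came next in both. In Control the astrocyte level did not differ beyond counting error from that of microglia, and in EMF_AuNPs it was above it. Nnt was low in Control oligodendrocytes, at 0.265-fold (0.185 to 0.371) of the other classes. The order of the 8 classes was similar in the libraries (Spearman 0.86 and Pearson 0.80 of log2 levels over 8 classes, which share library depth and free RNA).

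Wdfy1 was highest in microglia in Control, at 2.54-fold (2.12 to 3.03) the other classes. In EMF_AuNPs the smooth muscle cells came first at 90.1 CPM (61.2 to 128), and microglia, oligodendrocytes and endothelial cells followed with neighbouring intervals that overlapped. The oligodendrocyte level of Wdfy1 was 46.3% of the microglial level in Control and 99.6% in EMF_AuNPs. The summed microglial markers in oligodendrocytes were 2.3% and 4.33% of their level in microglia. The part of free or mixed microglial RNA in the Wdfy1 level of oligodendrocytes was not tested. Ide was highest in astrocytes in both libraries, though in Control it did not differ there beyond counting error from oligodendrocytes. In EMF_AuNPs its astrocyte level was 2.19-fold (1.84 to 2.61) that of the other classes.

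Yipf4 was the most even of the 5. Its highest class was 1.81 times its lowest in Control and 1.47 times in EMF_AuNPs. The classes still differed: Control choroid plexus cells were at 1.48-fold (1.27 to 1.71) the other compared classes and Control astrocytes at 0.82-fold (0.684 to 0.978), and EMF_AuNPs red blood cells at 0.792-fold (0.628 to 0.986). Even red blood cells, in which most transcripts are haemoglobin, had 31.6 CPM (20.4 to 46.6) and 75.3 CPM (60.2 to 93.2) of Yipf4. The corresponding spans of Nnt were 13.2 and 10.1 times, of Wdfy1 7.24 and 6.36 times and of Ide 5.65 and 5.64 times.

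The share of cells in which a gene was found comes from the same UMIs that chose the genes and is no separate support. It was taken with each cell thinned to 1000 UMIs so that depth was equal. Over all such barcodes (17846 and 5617, with 3579 and 1379 shallower ones left out), Yipf4 was found in 2.72% (2.49 to 2.97) of Control and 8.51% (7.79 to 9.27) of EMF_AuNPs barcodes. Nnt was found in 0.650% (0.537 to 0.779) and 2.3% (1.92 to 2.72), Wdfy1 in 1.97% (1.77 to 2.19) and 5.02% (4.46 to 5.62), and Gabra2 in 0.846% (0.717 to 0.992) and 1.78% (1.45 to 2.16). Ide was found in 3.28% (3.03 to 3.56) and 3.06% (2.63 to 3.55), intervals that overlapped. Without thinning the shares were 6.74% and 20.9% for Yipf4, 1.69% and 6.48% for Nnt, 4.09% and 12.9% for Wdfy1, 1.76% and 4.17% for Gabra2, and 7.22% and 8.93% for Ide.

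By main class, thinned Yipf4 shares lay between 2.28% and 2.90% in Control and between 7.41% and 9.65% in EMF_AuNPs. Gabra2 was found in 3.11% (2.44 to 3.89) of Control and 5.06% (3.82 to 6.55) of EMF_AuNPs astrocytes. In endothelial cells, where little Gabra2 was counted, the shares were 0.273% (0.1 to 0.594) and 0.658% (0.242 to 1.43), at median depths of 1607 and 2299 UMIs against 1404 and 2404 in astrocytes. Red blood cells gave 1 of 247 Control and 1 of 409 EMF_AuNPs cells with an Nnt UMI. This class is not an empty background. Its haemoglobin markers summed to 533153 and 601241 CPM, and its summed endothelial markers were 17.9% and 10.8% of their endothelial level. No class known to lack Nnt, Wdfy1, Ide or Yipf4 was at hand as a background.

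**Figure D3:**
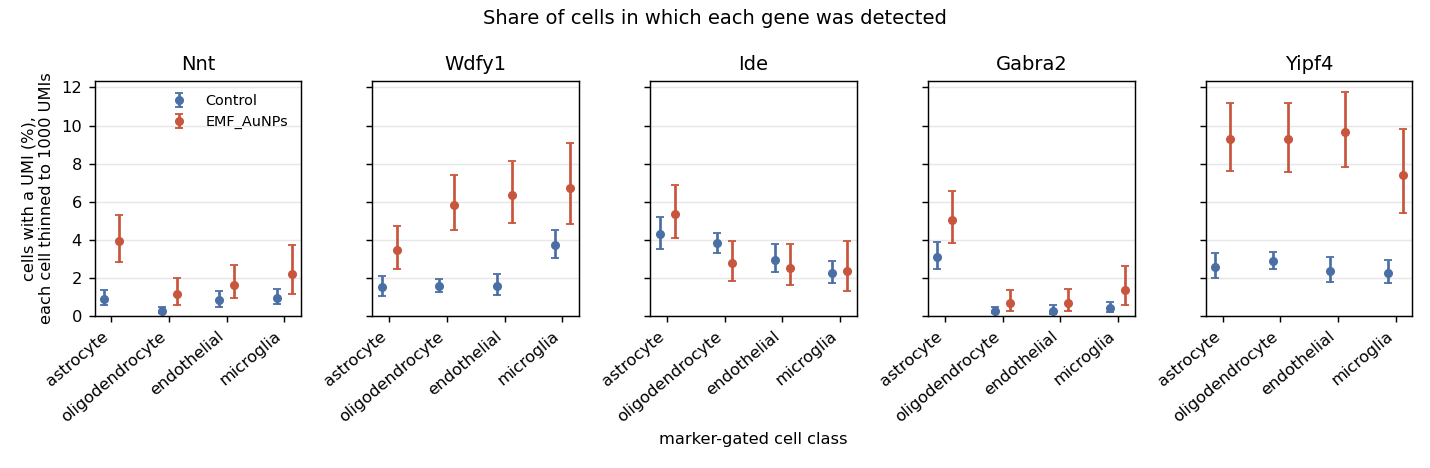
Share of cells (%, vertical axes from 0) with at least 1 UMI of each gene after thinning to 1000 UMIs, in the 4 main classes of the Control (blue) and EMF_AuNPs (red) library; bars are Clopper-Pearson 95% intervals. The Yipf4 shares are 2.28% to 2.90% in Control and 7.41% to 9.65% in EMF_AuNPs, and those of Ide overlap in each class.

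Markers of other cells also moved between the libraries. In oligodendrocytes 10 of 10 microglial markers were higher in EMF_AuNPs, with a summed level of 623 against 1408 CPM, and in endothelial cells 10 of 10, with 623 against 1429 CPM. Both haemoglobin markers at hand were higher in EMF_AuNPs in all 8 classes, with sums of 1693 and 8331 CPM in microglia and 1768 and 5958 CPM in astrocytes. Choroid plexus markers went the other way, at 11659 and 6647 CPM in microglia. Summed neuronal markers in oligodendrocytes were 331 and 140 CPM, and gated excitatory or granule neurons were 0.845% and 0.229% of barcodes. No defining marker of these lists was at 0 in the main classes. The part of these levels in the ratios of the 5 genes was not tested.

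Genes with a pattern most like each member were taken as those at the smallest Euclidean distance in log2 ratio over the 4 main classes, among 10412 genes. Yipf4 was most like Cept1 (distance 0.26, an enzyme of phospholipid synthesis), Tspan12 (0.53, a tetraspanin of Norrin signalling), Kbtbd7 (0.55), Lgmn (0.58) and Cd53 (0.65). Cept1 was 17.6 and 51.9 CPM over the libraries and had log2 ratios of 1.56 in astrocytes, 1.39 in oligodendrocytes, 1.65 in endothelial cells and 1.60 in microglia. Among the 5 genes most like Nnt were Unc93b1 (0.50), Cd53 (0.57), Lgmn (0.77) and Cbfb (0.79). Among the 5 most like Wdfy1 were P2ry12 (0.49), Gpr34 (0.53), Lgmn (0.53) and Cd53 (0.63). P2ry12 and Gpr34 are among the microglial markers, whose summed level outside microglia is given above.

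Ide was most like Vwa8 (0.09), Nat8f4 (0.11), Socs7 (0.12), Samhd1 (0.13) and Nckap1 (0.13), and Gabra2 most like Acta2 (0.19), Prim1 (0.21), Prdx1 (0.25), Tubb3 (0.26) and Katnbl1 (0.28). Distances were shorter near the middle of the distribution, where genes are dense.

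Ranked by the lowest of the 4 main class ratios, Yipf4 was the 2nd of the 10412 genes at 1.56, Nnt the 16th at 1.05, Wdfy1 the 29th at 0.95, Gabra2 the 264th at 0.56 and Ide the 5461st at -0.25. This ranking scores what Nnt, Wdfy1 and Yipf4 were chosen for, so their high places follow from the choice. The first 10 were Hbb-b2 (1.77), Yipf4, Kbtbd7 (1.44), Cept1 (1.39), Hbb-bs (1.36), Tspan12 (1.21), Alas2 (1.19), Ppp1cb (1.17), Msmo1 (1.17) and Lgmn (1.14). Hbb-b2 and Hbb-bs encode beta chains of haemoglobin and Alas2 the first enzyme of haem synthesis in red blood cells. Msmo1 acts in sterol synthesis, Lgmn is a lysosomal protease and Ppp1cb a catalytic subunit of protein phosphatase 1. Whether Kbtbd7, Cept1, Tspan12 and Ppp1cb differ between substrains was not tested.

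**Figure D4:**
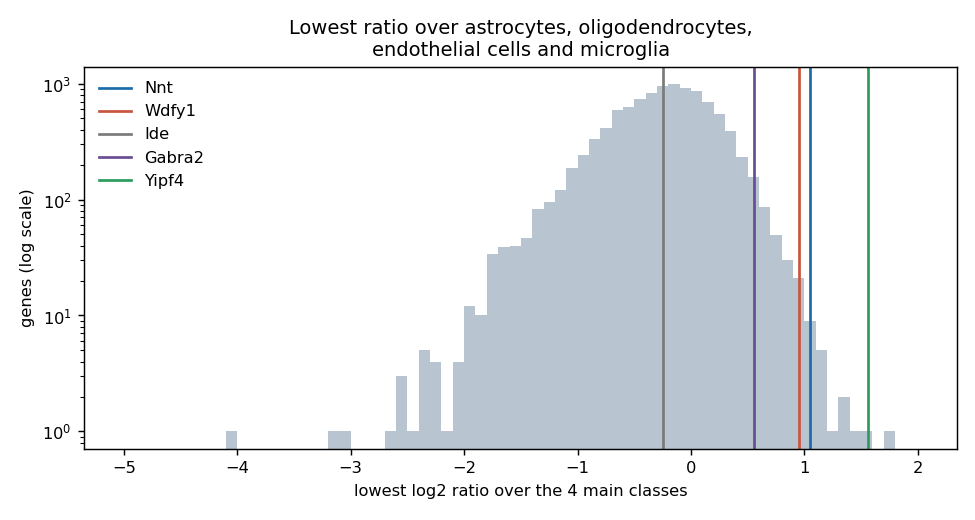
Number of genes (log axis) by the lowest log2 ratio of EMF_AuNPs over Control among astrocytes, oligodendrocytes, endothelial cells and microglia, for 10412 genes with at least 20 UMIs in each; coloured lines mark the 5 genes. Yipf4 at 1.56, Nnt at 1.05 and Wdfy1 at 0.95, all chosen for high ratios, lie in the upper tail and Ide at -0.25 near the middle.

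Other genes of the same pathways were taken from lists by function. Over all 15402 genes the median log2 ratio was 0.07, and 9.69% were at least 1.5-fold higher and 7.02% lower. The counts per list, here and below, are small and were not tested against these shares. Of 12 genes of mitochondrial NADPH supply and peroxide removal, the setting in which Nnt works, 3 were at least 1.5-fold higher in EMF_AuNPs and 0 lower, with a median of 0.29. The largest were Sod2, the mitochondrial superoxide dismutase, at 73.8 and 132 CPM (log2 ratio 0.83, 0.77 to 0.92), and Prdx3, a mitochondrial peroxidase, at 23.3 and 41.2 CPM (0.80, 0.69 to 0.95). Both were smaller than the 1.74 of Nnt, which was chosen for a high ratio, so this order follows from the choice. Idh2, the other main source of mitochondrial NADPH, was 0.58 (0.52 to 0.66).

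Of the 7 counted relatives of Yipf4 in the YIPF and YIF1 families, 0 passed 1.5-fold in either direction. Their median was 0.26, against 1.55 for Yipf4, which was chosen for its high ratio, so this contrast follows from the choice. Yipf6 at 0.54 (0.41 to 0.71) and Yipf5 at 0.48 (0.40 to 0.59) were the largest, and Yipf7 had 0 UMIs. Of 9 genes related to Wdfy1 or to Toll-like receptor signalling, 2 were higher and 0 lower, with a median of -0.05. These were Tlr3, a sensor of double-stranded RNA, at 22.8 and 43.3 CPM (0.90, 0.80 to 1.06), and Tlr4, the receptor of lipopolysaccharide, at 5.35 and 9.26 CPM (0.69, 0.51 to 1.07). The close relatives Wdfy2, Wdfy3 and Wdfy4 had log2 ratios of -0.47, -0.22 and -0.05. Wdfy1 too was chosen for a high ratio, so its place above these genes follows from the choice.

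Of 10 genes of insulin receptor, peptide proteases and amyloid precursor set beside Ide, 3 were higher (Insr, Ece2 and Pmpcb) and 1 lower, with a median of 0.29. The lower one was Nrd1, a protease of the same family as Ide, at 168 and 102 CPM (-0.71, -0.79 to -0.65), and Pmpcb, a mitochondrial processing peptidase, was the largest upwards at 0.66 (0.56 to 0.80).

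Of 12 counted GABA-A receptor genes other than Gabra2, 2 were higher and 1 lower, with a median of -0.15. Gabrg1, a gamma subunit, was 15.6 and 42.2 CPM (1.38, 1.30 to 1.58) and Gabrb1, a beta subunit, 25.5 and 52.3 CPM (1.01, 0.92 to 1.15). Within astrocytes Gabrg1 was at 1.17 and Gabrb1 at 0.62, against 0.56 (0.26 to 0.89) for Gabra2, an interval that held the Gabrb1 value. Gabra5, an alpha subunit of hippocampal neurons, was lower, at 7.61 and 2.15 CPM (-1.45, -2.32 to -1.36). Within classes its log2 ratio was -0.88 in astrocytes, -1.50 in oligodendrocytes, -2.32 in endothelial cells and -1.21 in microglia. Its Control levels there were low, from 4.87 to 7.14 CPM. Fewer neurons were gated in EMF_AuNPs, as given above, and the part of this in the Gabra5 ratios was not tested.

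Gabrg1 and Gabrb1 are also chromosomal neighbours of Gabra2. Of the 30 nearest measured genes, 3 on each side of the 5 genes, 6 were at least 1.5-fold higher and 2 lower. Over all 15402 genes with at least 20 UMIs the shares were 9.69% and 7.02%, and the difference was not tested. The 6 neighbours of Nnt ran from -0.50 to 0.44 in log2 ratio, with 0 past the mark, and Paip1, 19.6 kb away, was 0.05 (-0.08 to 0.17). Those of Wdfy1 ran from -0.93 to 0.58, with the overlapping Mrpl44 at 0.45 and Serpine2, 18.1 kb away, at 0.52. Those of Yipf4 ran from -0.54 to 0.76, with Birc6, 28.0 kb away, at -0.43. The neighbours of Ide ran from -0.81 to 0.64. No neighbour of Nnt, Wdfy1 or Yipf4 reached the ratio of the gene itself, while Gabrg1 at 1.38 (1.30 to 1.58) lay above Gabra2 at 0.97 (0.84 to 1.28). Gabrb1 at 1.01 (0.92 to 1.15) had an interval that overlapped that of Gabra2. Nnt, Wdfy1 and Yipf4 were chosen for their high ratios, so their place above their neighbours follows from the choice.

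**Figure D5:**
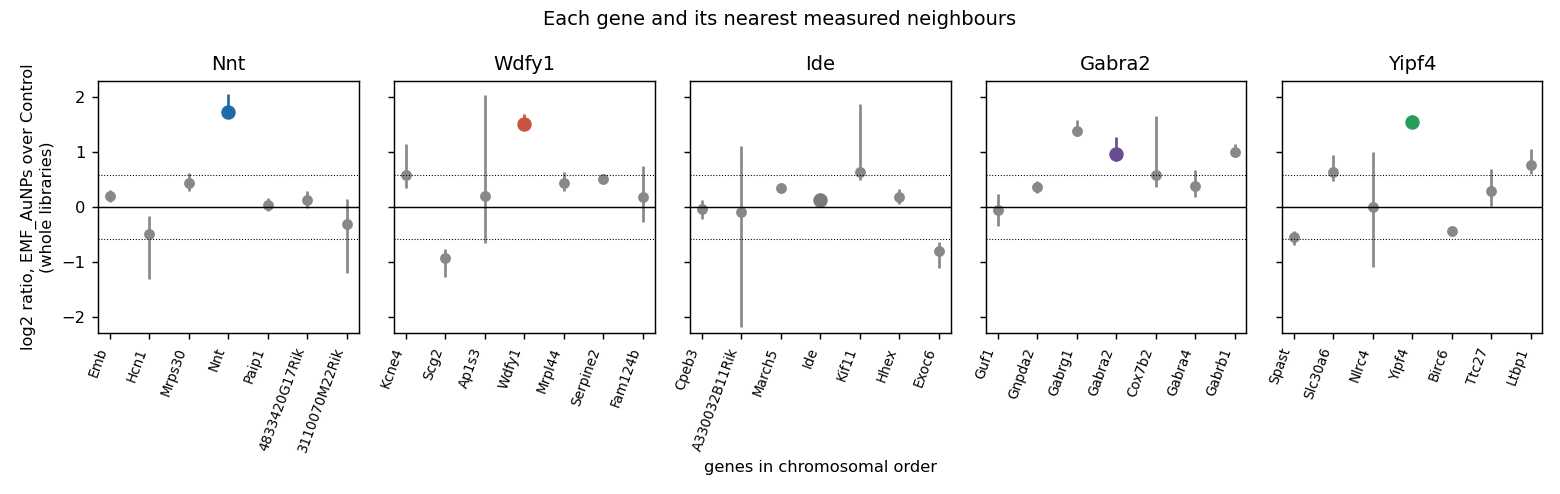
log2 ratio of EMF_AuNPs over Control over whole libraries (vertical axis) for each gene (coloured) and the 3 nearest measured genes on each side in chromosomal order (grey); lines are 95% counting intervals, clipped to the axis, and dotted lines mark 1.5-fold. Nnt, Wdfy1 and Yipf4, which were chosen for high ratios, stand above all 6 of their neighbours, and Gabra2 lies among genes that reach 1.38.

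A list of 7 further genes known for sequence differences between C57BL/6 substrains held 4 with at least 20 UMIs, of which 0 were higher and 1 lower, with a median of -0.50. Dock2, a guanine exchange factor of immune cells, was 21.2 and 9.67 CPM (-1.06, -1.36 to -0.91) over the libraries and -0.99 in microglia, which were 13.8% and 10.96% of barcodes. Entpd4 was 19.9 and 13.1 CPM (-0.57, -0.81 to -0.41) and Cyfip2 26.4 and 19.3 CPM (-0.43, -0.62 to -0.28). Mmrn1, Crb1 and Nlrp12 had at most 4 UMIs in either library.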

How the data were processed

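The deposited matrices hold raw UMI counts per gene and barcode for 1 Control and 1 EMF_AuNPs library, made by the authors. The submitters' processing notes name Cell Ranger 3.0.2, STAR and the build mm10. The sources used here give neither the annotation, nor the version of STAR, nor whether counting used the strand. Groups follow the treatment labels. The matrices list 0 mitochondrially encoded genes, so no mitochondrial filter was possible.

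A barcode needed 500 UMIs and 250 genes, and 158 and 7 fell short. A marker counted in a barcode when its share of the UMIs there exceeded its share of the library. A barcode joined the class with the most counted markers, at least 3, where every other class had at most 50% as many. This leaves out many mixed barcodes, and no doublet caller was run. Of 150 markers 5 are not listed in the matrices (Trbc2, Igkc, Ighm, Hba-a1 and Hbb-bt). UMIs were summed per class and library. Where both libraries had at most 3 UMIs no ratio is given, and a count of 0 allows up to 3. Intervals of levels are exact Poisson, of ratios conditional binomial and of shares Clopper-Pearson. Cells were not used as replicates. The members, gene lists, markers and alternatives were chosen with earlier results of these data known. Genes named besides the members are, per list, the 2 with the largest absolute ratio among those with at least 100 UMIs, the 5 most like each member, the 10 with the highest lowest ratio, and 3 neighbours per side. Idh2, Gabrb1, Wdfy2, Wdfy3, Wdfy4, Insr, Ece2 and Cyfip2 were named after their values were seen. Some genes that this rule names are not reported here. Python 3.11.15, numpy 2.4.6 and scipy 1.17.1 were used, and the ratio code was tested on simulated data.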

Additional observations from a re-analysis of the deposited data

Results flagged for a closer look

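Barcodes that no gate took, 4873 in Control and 1824 in EMF_AuNPs, enter none of the comparisons by class. Nnt, Wdfy1, Yipf4 and Gabra2 were above their Control level there. These barcodes belong to the libraries from which the genes were chosen, so the values are a description and no separate support. The share of all genes that were higher in these barcodes was not computed. The log2 ratio of EMF_AuNPs over Control was 1.85 (1.59 to 2.37) for Nnt, at 7.85 and 30.8 CPM, and 1.30 (1.08 to 1.60) for Wdfy1, at 21.1 and 53.5 CPM. It was 1.53 (1.34 to 1.77) for Yipf4, at 29.6 and 87.0 CPM, and 1.05 (0.68 to 1.58) for Gabra2, at 8.0 and 17.6 CPM. Ide, at 33.3 and 29.2 CPM, had a log2 ratio of -0.19 (-0.50 to 0.10), an interval that held 0. The median depth of these barcodes was 2205 UMIs in Control and 1168 in EMF_AuNPs.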

How the results depend on the processing

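Of 9 alternatives for each whole-library ratio, every one kept Nnt, Wdfy1 and Yipf4 above 1.5-fold and Ide below it, and Gabra2 fell below it with 10 CPM added. With 10 CPM added the log2 ratios were 1.10 for Nnt, 1.18 for Wdfy1, 1.32 for Yipf4 and 0.55 for Gabra2, which follows from the larger added value. With equal weight for each class they were 1.45 for Nnt, 0.65 for Gabra2 and 0.31 for Ide. Nnt was 1.67 relative to the median gene and 1.51 with each barcode thinned to 500 UMIs. The other values stayed within the counting interval of the ratio. The pairs of gene and class at least 1.5-fold higher numbered 23 to 31 over the alternatives, against 27, and none of 222 values by class turned a call to the other direction. At 2-fold the genes higher in all 4 main classes were 20, Nnt and Yipf4 among them and Wdfy1 not, and those lower were 27. Depth limits Nnt in pericytes, smooth muscle cells and red blood cells and Gabra2 outside astrocytes. No paired analysis was possible because each group has 1 library.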

Other observations

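The other classes had under 50 cells in at least 1 library. Ependymal cells, the ciliated lining of the ventricles, numbered 98 in Control and 44 in EMF_AuNPs and held 0 and 10 Nnt UMIs. The Control count of 0 allows up to 5.69 CPM and the EMF_AuNPs level was 41.2 CPM (19.8 to 75.8). This level is 7.25 times the limit of 5.69 CPM, and its own lower bound of 19.8 CPM is above both Control bounds. Wdfy1 in these cells was 13.3 CPM (5.34 to 27.3) and 107 CPM (70 to 157), Yipf4 24.7 CPM (13.1 to 42.2) and 94.8 CPM (60.1 to 142), and Ide 26.5 CPM (14.5 to 44.5) and 20.6 CPM (6.69 to 48.1). Border macrophages numbered 32 and 27 and held 0 and 6 Nnt UMIs, with Yipf4 at 1 and 8 UMIs. In 59 and 39 fibroblasts, Wdfy1 had 3 and 12 UMIs and Yipf4 6 and 16.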
